A study of Mus musculus with 98 samples.

Results

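Primary hippocampal neurons from CD1 mouse embryos were followed from day 9 to day 21 of culture after exposure to the material named hAD-tau. All of these cultures carried PhP.eB-vector, the control form of a virus whose capsid is used to carry genes into neurons, and none received the form that raises Acss2, on which the series is built. The comparison rests on 6 of the 98 samples of the series, 3 libraries at each age, chosen by the sample titles. Another 6 libraries had the same virus and PBS in place of hAD-tau, again 3 per age, and gave the day difference without tau. Per the labels' protocols the virus was added on day 5, and hAD-tau or PBS on day 7, so that day 9 lay 2 days and day 21 lay 14 days after the exposure. Culture age and time on tau therefore rose together, and they can be separated only through the PBS cultures. The treatment entry of the labels names vector and PBS for the tau groups as well, against the titles. The titles were followed, and no transcript measured here could check the exposure. The labels do not say whether the 3 libraries of a group came from separate cultures, so p-values measure the spread between these libraries, which may be technical.

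Hippocampal neurons plated from embryos first extend axons and dendrites, with high levels of growth cone and cytoskeletal proteins, and later assemble synapses and exchange embryonic for adult receptor and channel subunits. Tau, the product of Mapt, binds and stabilises microtubules and aggregates in Alzheimer's disease. Embryonic hippocampal preparations also hold glial precursors, and astrocytes and the oligodendrocyte lineage, which makes myelin, can expand in them over weeks.

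Total counts per library ran from 14603730 to 33960722. Levels are given as CPM (read counts relative to the scaled library size), which do not correct for gene length and so are compared only within a gene. A gene was called when its adjusted p from limma fell under 0.05, in a fit over the 12 vector libraries that let the days differ in spread. The replicates were tighter on day 9 (median SD of log2 CPM 0.0941 in tau and 0.0819 in PBS) than on day 21 (0.197 and 0.244). Replicate 2 of each day 21 group held a larger share of counts in Rn45s, the ribosomal RNA precursor (4.10% in tau and 10.98% in PBS), against 0.253% to 1.02% in the other 10 libraries. Results that turned on 1 of these libraries are given with and without it.

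The labelled cell type was checked first. The 13 neuron markers summed to between 9276 and 9739 CPM on tau day 9 and between 6322 and 9702 CPM on day 21, and all 13 were detected at both ages. Acss2, the gene raised by the other virus of the series, measured 48.1, 46.3 and 52.5 CPM on tau day 9 and 55.2, 45.5 and 56.9 CPM on day 21, with overlapping groups (log2 fold change 0.10 ± 0.14 (SE), adjusted p 0.581). The microglia list stayed low, with 14 of its 18 genes under 1 CPM on tau day 9 and 13 on day 21 and sums of 22.8 to 24 and 38 to 63.3 CPM. The sums of the endothelial, mural, meningeal and fibroblast list (32.0 to 33.8 CPM on day 9 and 30.9 to 32.7 on day 21) and of the choroid plexus and ependyma list (12.6 to 13.5 and 8.63 to 15.9) were low at both ages as well.

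Between day 9 and day 21 under tau, 6390 of 14464 genes tested changed (44.2% called), with 3234 higher (22.4%) and 3156 lower (21.8%) on day 21. The 3 libraries of each day did not overlap for 4452 genes higher on day 21 (30.8%) and 4288 lower (29.6%), and 52.1% of genes had an unadjusted p under 0.05, against 56.8% in PBS. Of the 6390 called genes, 1282 rose and 870 fell by more than 2-fold, while the median log2 fold change over all genes was 0.02. Most of the genes with the largest rises belong to the oligodendrocyte lineage, and several of those with the largest falls belong to axon growth. In PBS 7365 genes changed (50.9%), 3838 higher (26.5%) and 3527 lower (24.4%). In all, 5330 genes were called in the same direction with and without tau, which is 83.4% of the tau calls and 72.4% of the PBS calls. Across the genes tested the day differences of the pair of comparisons, which share no library, had a Pearson r of 0.894 and a Spearman rho of 0.874, given as a description since genes are not independent replicates. The difference between the day effects in tau and in PBS passed the threshold for 0 genes (limma), and 796 genes (5.5%) had an unadjusted p under 0.05, 2.73% of genes with a higher and 2.77% with a lower day effect under tau. DESeq2 on the same 12 libraries and edgeR's quasi-likelihood test over the 24 unstimulated libraries each called 1 gene, Fbln2, a matrix protein, and edgeR on the 12 libraries called 0. The 95% interval of that difference, before adjustment, lay within -1 to 1 on the log2 scale for 71.4% of genes, with a median half-width of 0.46. Smaller changes by tau were not detectable here for most genes. Differences wider than this could also miss the adjusted threshold, so the 0 calls set no bound on changes by tau.

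**Figure D1:**
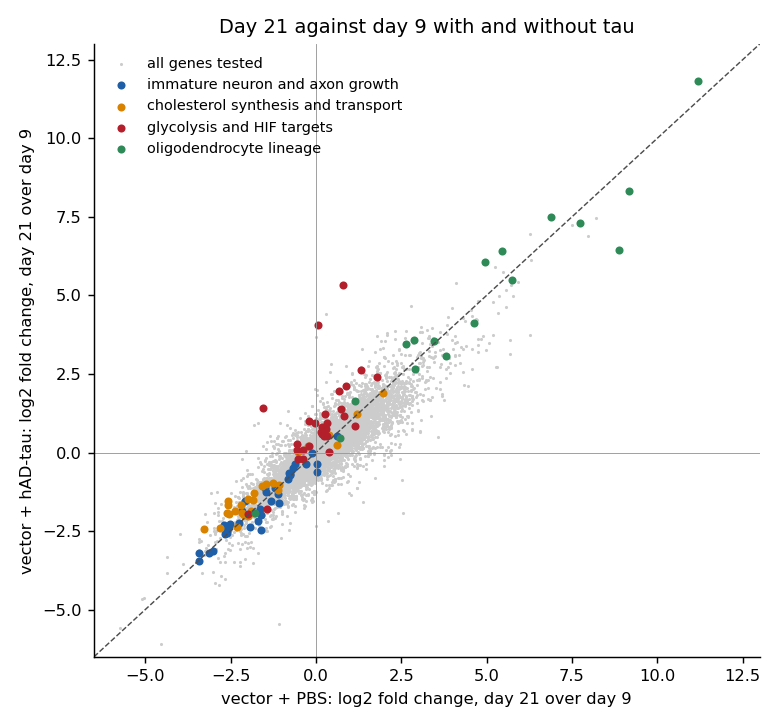
Log2 fold change from day 9 to day 21 in vector neurons with hAD-tau (vertical axis) against that in vector neurons with PBS (horizontal axis) for the 14464 genes tested, from the fit over 12 libraries, with members of 4 gene lists in colour and the line of equal change dashed. The points lie along the dashed line (Spearman rho 0.874), while most glycolysis and HIF target genes lie above it. The oligodendrocyte point at the upper right, Gpr17, rests on 2 counts on tau day 9, so its fitted value is uncertain.

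The immature neuron and axon growth genes fell together. Of 35 members, 29 were lower on day 21 under tau and 1 was higher, and the median log2 fold change was -1.62. These shares were 82.9% and 2.86%, against 21.8% lower and 22.4% higher of all genes. Doublecortin (Dcx, chromosome X, 143855842 to 143933311 of GRCm38, minus strand), a microtubule protein of migrating and newly formed neurons, measured 853, 1006 and 799.8 CPM on day 9 and 83.5, 138 and 87.1 CPM on day 21. The groups did not overlap, and the fall was -3.14 ± 0.18 on the log2 scale (SE; adjusted p 4.71e-08). The collapsin response mediators Dpysl5 (1586, 1676 and 1492 to 143, 135 and 152 CPM) and Dpysl3 (3387, 3602 and 3391 to 368, 454 and 328 CPM), which act on growth cone microtubules, fell by similar amounts (log2 fold changes -3.47 and -3.19). The axonal adhesion protein Cntn2 fell from 434, 434 and 370.3 CPM to 55.8, 36 and 42.6 CPM, and the growth cone protein Gap43 from 1317, 1291 and 1353 CPM to 276, 245 and 256 CPM. Sox4, a transcription factor of neural precursors, was the only called member of the list that rose (log2 fold change 0.54, adjusted p 0.0285). It no longer passed without tau day 21 replicate 2 (log2 fold change 0.19), without tau day 9 replicate 3, by edgeR on the 12 libraries or in both other treatments of the spread. In PBS the same list had 30 lower and 1 higher members and a median of -1.61.

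Outside the lists, the genes that fell most under tau by the naming rule included Chodl, a C-type lectin (17.2, 24.9 and 21.4 CPM on day 9 and 0.288, 0.371 and 0.220 CPM on day 21), Mgam, a maltase (18.3, 22.5 and 19.1 and 0.468, 0.425 and 0.309 CPM), and the collagen Col15a1 (11.4, 10.6 and 12.2 and 0.432, 0.478 and 0.397 CPM). In each, every day 21 library lay far below every day 9 library, and the log2 fold changes were -6.10, -5.58 and -4.65. St8sia2, the enzyme that adds polysialic acid to NCAM in the developing brain, fell from 72.3, 77 and 62.5 CPM to 4.24, 10.1 and 8.07 CPM (log2 fold change -3.39). Lypd6, a modulator of nicotinic acetylcholine receptors, fell from 81.5, 90.7 and 76.6 to 7.81, 8.01 and 7.10 CPM. The imprinted zinc finger gene Zim1 and the membrane protein gene Ano5 fell by 3.35 and 3.28 on the log2 scale.

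Mapt and its partners followed the growth genes. Mapt (chromosome 11, 104231390 to 104332090 of GRCm38, plus strand) measured 2529, 2675 and 2462 CPM on tau day 9 and 501, 454 and 462 CPM on day 21, with no overlap (log2 fold change -2.44 ± 0.09 (SE), adjusted p 9.47e-10). In PBS it went from 2448, 2574 and 2475 CPM to 470.2, 399 and 408 CPM, a log2 fold change of -2.56, and the difference between tau and PBS was 0.12 (95% interval -0.16 to 0.40). The list of tau, structural microtubule proteins and tau kinases had 20 of 30 members lower and 2 higher, with a median of -0.50 (PBS 20 and 2, median -0.52). The tau shares were 66.7% lower and 6.67% higher, against 21.8% and 22.4% of all genes. Map1b, the microtubule protein of growing axons (4572, 5168 and 4357 to 1121, 921 and 1254 CPM), and Map6, which stabilises microtubules against cold (285, 289.9 and 269.8 to 83.9, 62.4 and 83.4 CPM), fell most after Mapt among the members of this list, which leaves out the tubulins placed with the growth genes. The kinase gene Gsk3b, whose product phosphorylates tau, fell by 1.07 on the log2 scale (adjusted p 1.76e-05). Tuba4a, an alpha-tubulin of mature neurons, rose from 161, 149.8 and 144 CPM to 284, 216 and 284 CPM. The other riser was the cochaperone gene Fkbp5 (log2 fold change 0.40). Its call was lost without tau day 21 replicate 1 or 3 or any 1 of the tau day 9 libraries, and by DESeq2, by edgeR on the 12 libraries and in both other treatments of the spread.

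**Figure D2:**
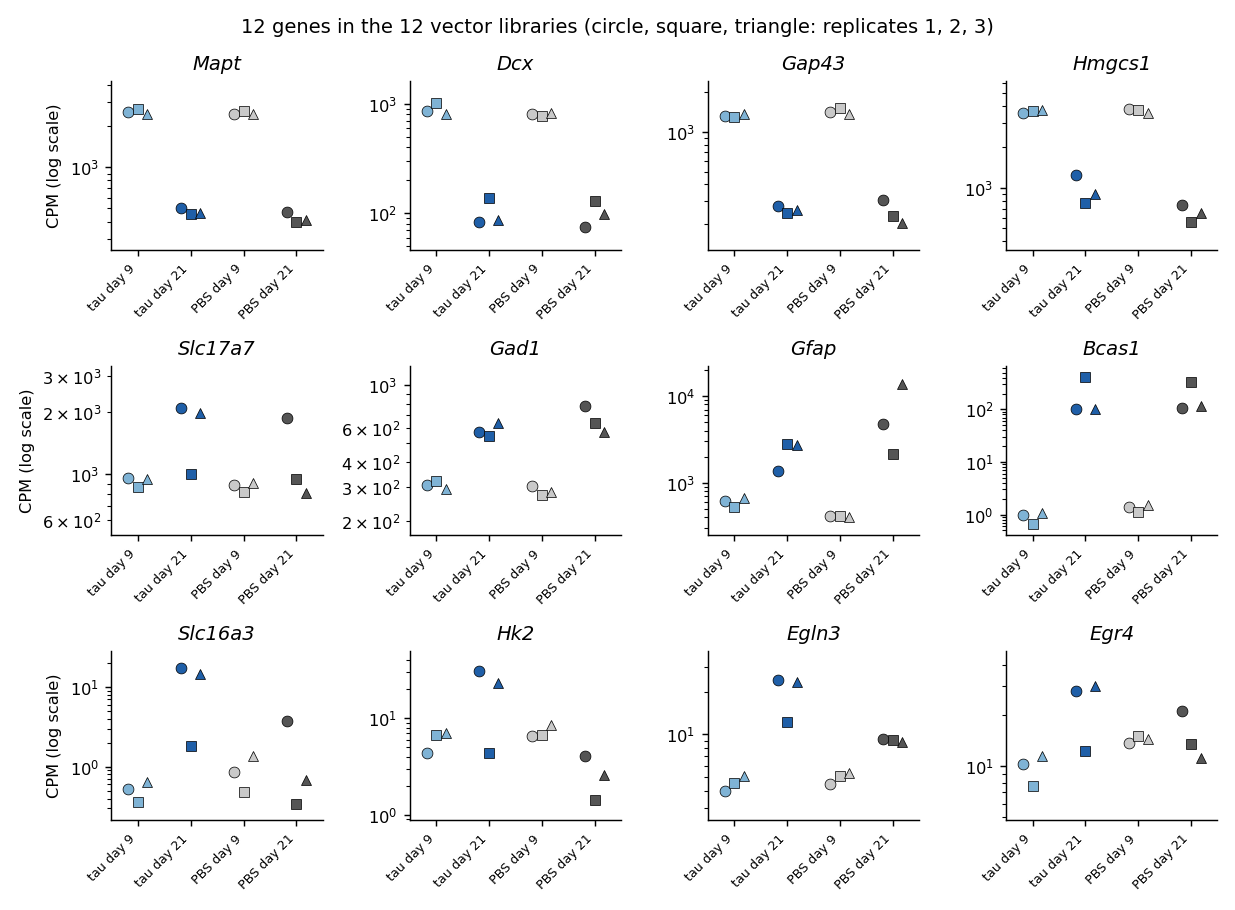
CPM on a log axis in each of the 12 vector libraries for 12 genes, with tau cultures in blue and PBS cultures in grey, day 9 light and day 21 dark, and the replicate number as the marker shape. Mapt, Dcx, Gap43 and Hmgcs1 separate the days with and without tau, whereas Slc16a3, Hk2 and Egr4 are high in tau day 21 replicates 1 and 3 and lower in replicate 2.

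Synaptic and channel genes changed in both directions, with list medians under tau from -0.26 to 0.01. The shares of members that rose ran from 17.6% to 28.6% over these 6 lists and the shares that fell from 18.8% to 39.1%. Of all genes 22.4% rose and 21.8% fell, so the rises are near the background. The shares that fell lay above it in every list but that of potassium and HCN channels. In PBS 6 glutamate receptor genes rose and 10 fell (median -0.12), and 2 and 8 of the GABA list (-0.28). The PBS counts were 4 and 11 for presynaptic (-0.24), 5 and 10 for postsynaptic (-0.35) and 5 and 12 for sodium and calcium channel genes (-0.55). Potassium and HCN channels had 9 and 8 (-0.07). Among 22 glutamate receptor genes 8 fell and 4 rose (36.4% and 18.2%, median -0.19). The NMDA receptor subunit Grin2b, which predominates in the embryonic brain, fell from 603, 703 and 529 CPM to 296, 204 and 313 CPM, and the metabotropic receptors Grm7 and Grm5 fell by 1.28 and 1.14 on the log2 scale. Grin3a, an NMDA receptor subunit that lowers calcium flow, rose from 29.3, 28.9 and 29.4 CPM to 53.4, 80.9 and 51.2 CPM, and all 3 day 21 libraries lay above all day 9 libraries. The count of risers fell to 2 without tau day 21 replicate 1 or 3. Among 17 genes of GABA-A and GABA-B receptors and chloride transport 5 fell and 3 rose (median -0.10). Gabra2, an alpha subunit of the GABA-A receptor, fell from 738, 780.4 and 719.7 to 329, 238 and 349 CPM (log2 fold change -1.31 ± 0.12 (SE), adjusted p 2.46e-06), and in PBS its log2 fold change was -1.44.

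On the presynaptic side 8 of 28 genes rose and 7 fell (median 0.00, with 5 risers without tau day 21 replicate 1 or 3). Vamp1, a vesicle fusion protein, rose from 22.8, 21.8 and 23.5 CPM to 128, 90.7 and 119 CPM (log2 fold change 2.30 ± 0.19 (SE), adjusted p 7.39e-07). The vesicular glutamate transporters moved apart: Slc17a6, the form of immature hippocampal neurons, fell from 48.7, 63.5 and 54.6 CPM to 12.5, 11 and 9.30 CPM, whereas Slc17a7, the form of mature ones, went from 960.4, 868 and 951 CPM to 2081, 1008 and 1975 CPM. Tau day 21 replicate 2 lay near the day 9 level of Slc17a7, and its call (log2 fold change 0.79, adjusted p 0.0123) was lost without tau day 21 replicate 1 or 3 and in both other treatments of the spread. Stx1a, a plasma membrane fusion protein, and Syn3, a synapsin of early development, fell by 1.31 and 1.45 on the log2 scale. Of 27 postsynaptic genes 7 rose and 9 fell (median -0.13). Shank1, a scaffold protein, and Homer2, an adaptor of metabotropic receptors, fell by 1.09 and 1.19, and the adhesion gene Lrrtm3 and the scaffold gene Dlg1 rose by 1.32 and 1.00.

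Sodium and calcium channel genes had 6 members higher and 9 lower of 23 (median -0.26). The adult sodium channel Scn1a rose from 31.6, 31 and 31.4 CPM to 68.6, 50.1 and 79 CPM and its auxiliary subunit Scn2b from 66.9, 71.3 and 63.6 CPM to 245, 175 and 209 CPM. Scn3b, a sodium channel subunit of the early brain, and Cacna1b, the N-type calcium channel, fell by 1.07 and 1.22 on the log2 scale. Of 32 potassium and HCN channel genes 9 rose and 6 fell (median 0.01), and 2 fell when tau day 21 replicate 2, tau day 21 replicate 3 or tau day 9 replicate 2 was left out and 3 by edgeR on the 12 libraries. Kcnc2, a fast delayed rectifier of fast-spiking cells, rose from 28.5, 33.4 and 31.1 CPM to 67.5, 69.2 and 81 CPM.

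Genes of inhibitory interneurons mostly rose, with 14 of 24 higher and 6 lower under tau (median 0.67) and 15 and 4 in PBS (median 0.84). The tau shares were 58.3% and 25%, against 22.4% and 21.8% of all genes. Pvalb, with 1 count over the tau day 9 libraries, could not pass the low-count filter through that group. Such members can enter the list only as risers, so these counts and medians are a description. Gad1, which makes GABA, went from 306, 322 and 292 CPM to 569, 544 and 635 CPM. Npy, a neuropeptide, went from 4.89, 3.18 and 4.93 CPM to 20.9, 13.9 and 19.5 CPM, with no overlap for either. Pvalb, the calcium buffer of fast-spiking interneurons, had 1 count over the 3 day 9 libraries and 132 over the 3 day 21 libraries, a ratio of 87.2 relative to library size with a counting interval of 15.4 to 3471. Reln, a secreted protein of early-born Cajal-Retzius cells and of interneurons, fell from 295, 336 and 286 CPM to 139, 110.3 and 188 CPM, and Nos1, neuronal nitric oxide synthase, from 108, 119 and 95.9 CPM to 31.4, 31.4 and 49.8 CPM. Of 18 neuropeptide and neurotrophin genes tested of 23, 10 rose and 1 fell (55.6% and 5.56%, against 22.4% and 21.8% of all genes, median 0.63). Nrn1, an activity-linked growth factor, rose from 80.2, 76.4 and 85 CPM to 303, 175 and 253 CPM, and Vgf, a secreted neuropeptide precursor, from 77.5, 66.4 and 106 CPM to 477, 159.6 and 335 CPM, while the neurotrophin Ntf3 fell by 0.96 on the log2 scale. The count of risers was 5 without tau day 21 replicate 1 and 4 without replicate 3.

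Activity-induced genes, which respond to calcium entry, had 14 of 28 members higher and 4 lower under tau (median 0.55), against 10 and 6 in PBS (median 0.15). Of all genes, 26.5% rose and 24.4% fell in PBS. Under tau 22.4% and 21.8% did, beside 50% and 14.3% of this list. Arc, a regulator of AMPA receptor turnover, rose from 3.78, 3.78 and 6.45 CPM to 24.4, 10.6 and 62.8 CPM (log2 fold change 2.54 ± 0.47 (SE), adjusted p 0.000638), and by 1.92 on the log2 scale without tau day 21 replicate 3. Nr4a1, a nuclear receptor, measured 6.13, 5.94 and 8.69 CPM on day 9 and 25.6, 14 and 33.2 CPM on day 21 (log2 fold change 1.78). Its relative Nr4a3 fell, from 469.9, 534 and 533 CPM to 206, 93.5 and 189 CPM (log2 fold change -1.74), as did the kinase gene Sik1 (log2 fold change -1.42), so members of this list changed in opposite directions. Replicate 2 was the lowest of the 3 tau day 21 libraries for Arc, Nr4a1 and Nr4a3. Of the 28 members, 6 had an unadjusted p under 0.05 for a larger rise under tau than in PBS, against 2.73% of all genes, and 0 passed after adjustment. That count was 2 without tau day 21 replicate 3, 3 without tau day 21 replicate 1, tau day 9 replicate 2 or PBS day 9 replicate 1, and 10 without tau day 21 replicate 2, and it was 2 with equal spread of the days. The mean log2(CPM + 0.5) of the list was lower on tau day 9 (4.18, 4.11 and 4.34) than on PBS day 9 (4.60, 4.51 and 4.49), with no overlap, whereas on day 21 the groups overlapped (tau 4.76, 4.26 and 5.13, PBS 4.93, 4.53 and 4.62).

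The promoters of Nr4a1 and Btg2 are shown as examples of members that rose. Btg2, an antiproliferative early gene, rose from 14.9, 13.2 and 15.3 CPM to 34.9, 57.6 and 48.2 CPM. CREB, a calcium-responsive transcription factor, is known to regulate genes of this list, and its part here was not tested. Capitals mark the CRE half-site TGACG on either strand. The bases are the 250 before the RefSeq start site on GRCm38.p6, written 5′ to 3′ along the gene, at chr15:101266596-101266845 on the plus strand and chr1:134079156-134079405 on the minus strand.
Nr4a1: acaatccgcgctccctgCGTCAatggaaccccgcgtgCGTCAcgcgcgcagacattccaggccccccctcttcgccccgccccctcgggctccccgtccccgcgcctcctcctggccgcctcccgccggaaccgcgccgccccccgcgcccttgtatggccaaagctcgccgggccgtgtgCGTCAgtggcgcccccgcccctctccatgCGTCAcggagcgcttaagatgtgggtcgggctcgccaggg
Btg2: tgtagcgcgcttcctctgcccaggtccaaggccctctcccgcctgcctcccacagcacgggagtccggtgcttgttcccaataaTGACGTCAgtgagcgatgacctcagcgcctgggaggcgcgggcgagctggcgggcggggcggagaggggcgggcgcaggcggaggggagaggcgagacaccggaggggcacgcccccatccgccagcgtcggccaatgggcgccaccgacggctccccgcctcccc
Of 28 members 21 had a promoter in the table, and 14 of these (66.7%) held TGACG within 300 bases around the start, against 21.0% of the promoters of 27025 genes, with the first listed promoter taken for each gene. The full CRE, TGACGTCA, which contains the half-site, stood in 2 (9.52%, against 1.88%). The half-site was not confined to members that rose. It stood also in Nr4a3, which fell, and in Homer1 and Nr4a2, with tau day 21 over day 9 ratios of 0.62 and 0.89.

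Most genes of cholesterol synthesis fell, while 3 genes of cholesterol export and lipid transport rose. Of 28 members 22 were lower on day 21 under tau and 3 were higher, with a median of -1.54. The shares were 78.6% and 10.7%, against 21.8% lower and 22.4% higher of all genes. The counts of 22 and 3 were the same in every alternative fit of the tau comparison that was run. Hmgcs1 (chromosome 13, 119690379 to 119708260 of GRCm38, plus strand), an early enzyme of the pathway, measured 3608, 3716 and 3793 CPM on day 9 and 1243, 771 and 904 CPM on day 21 (log2 fold change -1.96 ± 0.13 (SE), adjusted p 9.51e-08). The mevalonate pathway genes Mvd (224, 209 and 223 to 54.2, 34.3 and 34.3 CPM), Fdps (329.8, 306 and 322 to 76.4, 50.6 and 55.6 CPM) and Mvk (118, 108 and 111 to 20.6, 25.4 and 20.5 CPM) fell most, by 2.36 to 2.44 on the log2 scale. For each of these, all 3 day 21 libraries lay under all 3 day 9 libraries. Srebf2, the transcription factor of the pathway, fell by 0.97 on the log2 scale. The risers were Apoe, the lipid carrier that astrocytes secrete (691, 589 and 794 to 2214, 2903 and 2568 CPM), the efflux transporter Abcg1 (24.8, 26 and 25 to 67.3, 48.8 and 62.4 CPM) and Cyp46a1, the neuronal enzyme that turns cholesterol into an exported form (log2 fold change 0.57). Other transport members did not share the rise: the efflux transporter Abca1 was not called (75.7, 80.6 and 90.6 to 74.5, 118 and 104 CPM), and Stard4, given below, fell. The astrocyte markers described below rose in the same libraries, and their part in the Apoe value was not tested.

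In PBS the list had 22 lower and 4 higher members with a median of -1.88. Of the 28 members, 22 had a less negative or more positive day effect in tau than in PBS, against 48.8% of all genes. This direction was not particular to the list, since 26 of 28 presynaptic genes shared it, against 2 of 18 astrocyte markers. For 9 cholesterol members the difference between tau and PBS had an unadjusted p under 0.05 (limma), against 2.73% of all genes. Among the wider gaps were those of Stard4, a sterol transfer protein (-1.55 in tau and -2.58 in PBS, difference 1.04, 95% interval 0.28 to 1.79) and Mvd (-2.44 and -3.27, difference 0.84). Stard4 measured 96.3, 40.2 and 69.7 CPM on tau day 21 and 53.6, 31.5 and 37.5 CPM on PBS day 21, so the groups overlapped by replicate 2 of tau, and 194, 189 and 189 CPM on tau day 9 against 290.1, 224 and 205 CPM on PBS day 9, where all PBS libraries were higher. Of the 28 differences 0 passed after adjustment, and the count of 9 fell to 2 without tau day 21 replicate 1 and rose to 13 without tau day 21 replicate 2, PBS day 21 replicate 1 or PBS day 9 replicate 3. It was 6 without PBS day 21 replicate 2 and 5 by edgeR over the 24 unstimulated libraries.

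**Figure D3:**
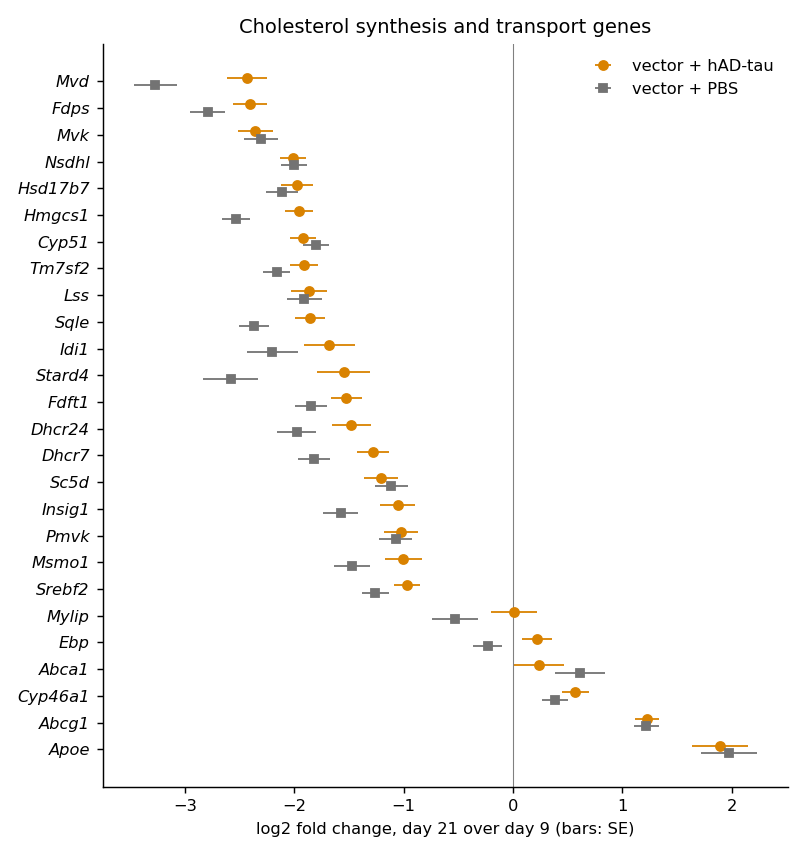
Log2 fold change from day 9 to day 21 with its SE for 26 cholesterol synthesis and transport genes, in vector neurons with hAD-tau (circles) and with PBS (squares). Of these genes, 20 are called lower with tau and 20 with PBS. For 20 the tau value lies to the right of the PBS value, against 48.8% of all genes, with 0 differences past the adjusted threshold. Some lists not drawn here shared this direction and others did not, as the text gives.

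Promoters of Hmgcs1 and Idi1, the isomerase of the pathway, are shown because most of the list fell with tau and with PBS. Capitals mark the sterol regulatory element letters TCACNCCAC and the CCAAT box, searched on both strands, in the 250 bases before the RefSeq start site on GRCm38.p6 at chr13:119690101-119690350 on the plus strand and chr13:8885356-8885605 on the plus strand.
Hmgcs1: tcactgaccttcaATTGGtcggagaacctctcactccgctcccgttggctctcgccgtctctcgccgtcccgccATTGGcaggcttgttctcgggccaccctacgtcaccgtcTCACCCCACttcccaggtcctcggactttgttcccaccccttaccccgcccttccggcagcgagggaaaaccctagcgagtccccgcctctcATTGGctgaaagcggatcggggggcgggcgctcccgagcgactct
Idi1: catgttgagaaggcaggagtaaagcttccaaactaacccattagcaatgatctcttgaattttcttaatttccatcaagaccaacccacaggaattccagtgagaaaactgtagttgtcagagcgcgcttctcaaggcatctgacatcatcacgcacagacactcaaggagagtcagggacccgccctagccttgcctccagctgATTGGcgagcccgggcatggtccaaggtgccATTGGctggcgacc
Of 28 members 20 had a promoter in the table. TCACNCCAC stood in 1 of them, Hmgcs1 (5.0%, against 1.22% of 27025 promoters), and CCAAT in 17 (85.0%, against 37.9%). These searches of the cholesterol list were added after the values had been seen.

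Genes of the oligodendrocyte lineage made up most of the largest rises under tau. Of 18 markers 17 were tested, and a gene near 0 on day 9 could pass the low-count filter only through day 21, so the count of 15 higher and 1 lower and the median of 4.12 are a description. Summed over the 18 markers the level went from 202 to 245 CPM on day 9 to 1463 to 3630 CPM on day 21. The precursor receptor gene Pdgfra rose from 5.15, 2.64 and 7.17 CPM to 251, 461 and 236 CPM (log2 fold change 6.06 ± 0.48 (SE), adjusted p 4.59e-07), and Sox10, the lineage transcription factor, from 0.652, 0.30 and 0.869 CPM to 39.4, 83.4 and 37 CPM. Gpr17, a receptor of cells committed to differentiate, had 2 counts over the 3 day 9 libraries and 18161 over the 3 day 21 libraries, a ratio of 5999.6 relative to library size (counting interval 1661 to 49544). Enpp6, of newly formed oligodendrocytes, had 3 and 2637 counts (ratio 581, counting interval 199 to 2818).

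Among genes of later stages, Bcas1, of early myelinating cells, rose from 0.978, 0.660 and 1.09 CPM to 102, 414 and 102 CPM. Cldn11, the myelin tight junction gene, Myrf, the myelin transcription factor (0.587, 0.240 and 0.435 to 11.9, 44.7 and 13.5 CPM), and the membrane protein gene Tmem255b also stood among the 10 highest. Tau day 21 replicate 2 was the highest library for Bcas1, Myrf, Gpr17 and Enpp6, and without it the log2 fold change of Bcas1 went from 7.48 to 6.80. Mog, a protein of mature myelin, was the called member that fell (3.59, 3.36 and 3.55 to 0.827, 1.06 and 0.882 CPM, log2 fold change -1.92). In PBS the list had 15 higher and 1 lower members and a median of 4.62. In bulk libraries fewer or more cells of a type cannot be told apart from less or more RNA per cell.

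Astrocyte markers rose as well, 13 of 18 higher and 0 lower under tau (72.2% and 0%, against 22.4% and 21.8% of all genes, median 1.08). In PBS 16 rose and 0 fell (median 1.37). The day effect was higher with tau than with PBS for 2 of the 18, against 48.8% of all genes, and 0 differences passed after adjustment. Gjb6, under 1 CPM on tau day 9, may have passed the low-count filter only through day 21. The astrocyte marker sums with tau were 3661 to 3851 CPM on day 9 and 5440 to 8861 CPM on day 21. Gfap, the filament protein (chromosome 11, 102887336 to 102900912, minus strand), went from 620.3, 527 and 669 CPM to 1346, 2810.4 and 2745 CPM with tau and from 413, 408 and 398 CPM to 4773, 2146 and 13877 CPM with PBS. The rises were 1.86 and 3.68 on the log2 scale, a difference of -1.82 (95% interval -2.94 to -0.70, unadjusted p 0.0036, adjusted p 0.823). PBS day 21 replicate 3 stood apart, with an astrocyte marker sum of 26056 CPM against 7064 and 10632 CPM in the other PBS day 21 libraries. Glul, glutamine synthetase, rose from 206, 215 and 224 CPM to 659, 927 and 765 CPM, and Gjb6, a gap junction protein of mature astrocytes, from 0.326, 0.360 and 0.217 CPM to 4.46, 3.61 and 5.25 CPM. Of 11 radial glia and progenitor genes tested of 12, 5 rose and 0 fell under tau (45.5% and 0%), among them Hes5 and Sox2. In PBS 8 rose and 0 fell. Under tau 2 rose and 1 fell without tau day 21 replicate 2. The microglia list had 6 of 18 genes above the filter, of which 3 rose, among them Cd68, a lysosomal protein (1.17, 1.26 and 1.45 to 8.45, 6.05 and 6.35 CPM). In the endothelial, mural, meningeal and fibroblast list 10 of 18 were tested, with 3 collagen genes higher and Kdr, the VEGF receptor, lower (10.8, 11.2 and 10.1 to 3.53, 3.40 and 3.31 CPM). In the choroid plexus list 5 of 10 were tested and 0 passed in limma, against 1 by edgeR or DESeq2.

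Extracellular matrix genes rose in 12 of 20 members tested of 23 and fell in 4 (60% and 20%, against 22.4% and 21.8% of all genes, median 0.93). Hapln4, a link protein of perineuronal nets, rose from 2.67, 3.12 and 1.74 CPM to 97.8, 25 and 88.1 CPM, with replicate 2 the lowest on day 21, by 4.61 on the log2 scale and by 5.20 without that library. Tnr, a tenascin of perineuronal nets that oligodendrocyte precursors also make, rose from 41.7, 42.5 and 40.6 CPM to 154, 242 and 159 CPM. The aggrecan gene Acan fell from 16.4, 17.4 and 11.9 CPM to 5.36, 3.40 and 5.64 CPM, and Tnc, the tenascin of the immature brain, fell by 1.50 on the log2 scale. Of 38 proliferation genes 11 rose (28.9%, near the 22.4% of all genes) and 0 fell (median 0.54), led by Ccnd1, a G1 cyclin (36.1, 36.6 and 38 to 103, 125 and 101 CPM), and Ccne1. Mki67, the division marker, measured 18.8, 16.3 and 18 CPM and 21.1, 30.8 and 27.7 CPM and did not pass (log2 fold change 0.55, adjusted p 0.065). The count of risers was 5 without tau day 21 replicate 2 and 7 without tau day 21 replicate 3 or tau day 9 replicate 2, but 17 with the replicate number as a block. It was 18 in a fit of the tau libraries alone. Oligodendrocyte and astrocyte marker sums were highest in tau day 21 replicate 2, and their part in the proliferation count was not tested. Of the 38 genes 30 had a promoter in the RefSeq table, of which 25 held the CCAAT box (83.3%, against 37.9% of all) and 15 held TTTGAA (50%, against 18.1%), the letters of the cell cycle homology region, each searched on both strands.

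Glycolysis, lactate and HIF target genes rose under tau in 21 of 30 members and fell in 2 (median 0.80), against 8 and 5 in PBS (median 0.21). The tau shares were 70% and 6.67%, against 22.4% and 21.8% of all genes. In PBS 26.5% of all genes rose and 24.4% fell, so the PBS count of risers lies near its background. HIF is the transcription factor that accumulates in low oxygen, and its targets include glucose transport, glycolysis and lactate export. The count of risers under tau ran from 17 to 24 over the alternatives. Slc16a3 (chromosome 11, 120948480 to 120960868 of GRCm38, plus strand), the lactate exporter, measured 0.522, 0.360 and 0.652 CPM on tau day 9 and 17.5, 1.80 and 14.3 CPM on tau day 21, against 0.865, 0.489 and 1.35 and 3.80, 0.345 and 0.679 CPM in PBS. Hk2, the inducible hexokinase, measured 4.37, 6.72 and 6.96 CPM on tau day 9 and 30.7, 4.35 and 23.1 CPM on day 21, against 6.49, 6.66 and 8.56 and 4.09, 1.42 and 2.57 CPM in PBS. For both genes tau day 21 replicates 1 and 3 lay above every other library of the 12, and replicate 2 lay within the range of the PBS day 21 libraries for Slc16a3 and below all 6 day 9 libraries for Hk2.

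Egln3 (chromosome 12, 54178981 to 54203860, minus strand), the prolyl hydroxylase that HIF induces, measured 3.98, 4.56 and 5.07 CPM on tau day 9 and 24.2, 12.3 and 23.3 CPM on day 21, with 9.27, 9.12 and 8.80 CPM on PBS day 21. All 3 tau day 21 libraries were above all 3 PBS day 21 libraries. Its rise was 2.11 ± 0.20 on the log2 scale with tau and 0.89 ± 0.22 with PBS (SE, with adjusted p of 2.86e-06 and 0.00443). Slc2a1, the glucose transporter, rose from 10.0, 10.9 and 11.6 CPM to 73.9, 35.4 and 67.4 CPM with tau and by 1.79 on the log2 scale with PBS. Car9, the HIF-induced carbonic anhydrase, had 1 count over the 3 tau day 9 libraries and 229 over the 3 day 21 libraries, a ratio of 151 with a counting interval of 26.9 to 6002. Its tau day 21 values were 5.32, 0.212 and 3.40 CPM and its PBS day 21 values 2.07, 0 and 0.148 CPM. Among the glycolytic enzymes Aldoa rose from 801, 765 and 797 CPM to 2149.7, 1262 and 2025 CPM. Ldha, lactate dehydrogenase, and Hk1, the constitutive hexokinase, did not pass (log2 fold changes 0.27 and -0.19, adjusted p 0.301 and 0.319). The lactate importer Slc16a7 and the regulator Pfkfb4 fell by 1.96 and 1.79, about as in PBS (-1.99 and -1.44).

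Set against PBS, 27 of the 30 members had a higher day effect with tau, against 48.8% of all genes. This direction was not particular to the list. It held for 26 of 28 presynaptic, 25 of 27 postsynaptic, 20 of 23 sodium and calcium channel and 31 of 38 proliferation genes. It held for only 2 of 18 astrocyte, 2 of 17 NRF2 and 3 of 21 p53 and apoptosis genes. Among the 27 glycolysis and HIF members is Car9, which was near 0 on day 9 and could pass the low-count filter only through day 21. Of the 27, 14 had an unadjusted p under 0.05 for the difference, against 2.73% of all genes, and 0 passed after adjustment (limma). The differences were 2.97 for Hk2 (95% interval 1.11 to 4.84), 3.99 for Slc16a3 (1.15 to 6.82), 1.22 for Egln3 (0.57 to 1.87) and 0.98 for Bnip3, a mitophagy gene (0.31 to 1.64). Without tau day 21 replicate 2 the adjusted threshold was passed by 6 genes of all those tested, each higher with tau: Egln3, Hk2, Fam162a, Bnip3, Slc16a3 and Gipr. In that fit the differences were 3.73 for Hk2 (adjusted p 0.0163), 1.41 for Bnip3 (0.0224), 1.50 for Egln3 (0.0333) and 4.88 for Slc16a3 (0.0438), by limma. Without tau day 21 replicate 1 they were 2.39, 0.67, 1.04 and 3.35, with 0 genes called. The count of members at an unadjusted p under 0.05 was 24 without tau day 21 replicate 2 and 21 without PBS day 21 replicate 1. It was 9 without PBS day 21 replicate 2 and 8 without PBS day 21 replicate 3. Without tau day 21 replicate 3 it was 7, and without tau day 21 replicate 1 it was 4. With both replicate 2 libraries of day 21 left out it was 23, and 0 genes passed. With all 12 libraries it was 12 by edgeR over the 24 unstimulated libraries, 11 by DESeq2, 8 with the spread taken per gene and day, 7 by edgeR on the 12 libraries and 5 with equal spread of the days.

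Levels of this list moved between day 21 libraries with tau and with PBS. Its members summed to 12238, 7177 and 10696 CPM on tau day 21, to 9518, 6533 and 6584 CPM on PBS day 21, and to between 5984 and 6548 CPM in the 6 day 9 libraries. The neuron markers summed to 9339, 6322 and 9702 CPM in the same tau day 21 libraries and to 9717, 6501 and 5903 CPM in those of PBS, so tau replicates 1 and 3 and PBS replicate 1 held the 3 highest day 21 sums of both lists. The oligodendrocyte lineage sums were 1463, 3630 and 1503 CPM with tau and 1660, 3109 and 1944 CPM with PBS. The part of these marker differences, and of the Rn45s share, in the difference between tau and PBS was not tested.

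**Figure D4:**
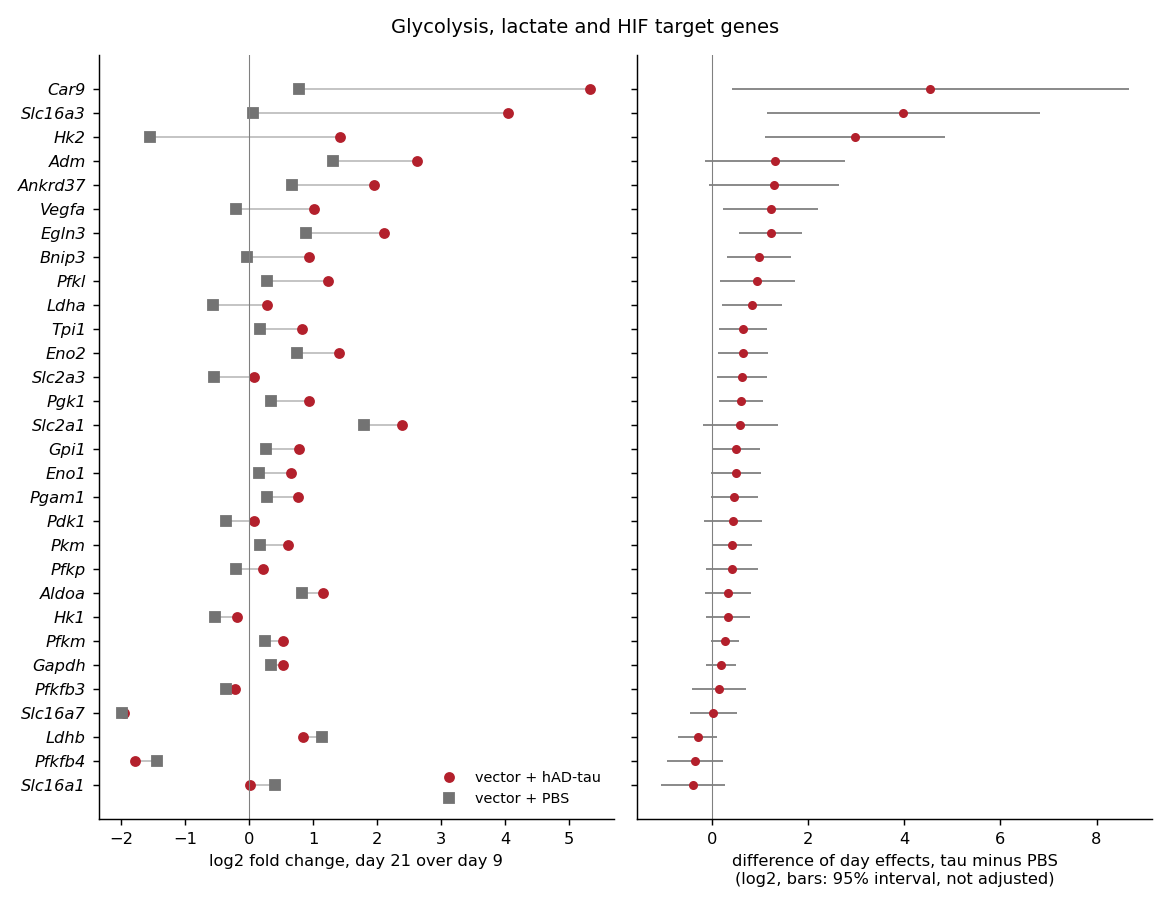
Left, log2 fold change from day 9 to day 21 for the 30 glycolysis, lactate and HIF target genes with hAD-tau (circles) and with PBS (squares); right, the difference of these day effects, tau minus PBS, with its 95% interval before adjustment. The circle lies to the right of the square for 27 of 30 genes, against 48.8% of all genes. Lists not drawn here shared this direction, such as 26 of 28 presynaptic genes, while others, such as 2 of 18 astrocyte markers, did not. Of the intervals 14 lie above 0, while 0 genes passed the adjusted threshold. The Car9 value rests on 1 count on tau day 9.

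The promoters of Slc16a3, Bnip3 and Egln3 are shown because these genes were among the 6 called for the difference without tau day 21 replicate 2. Capitals mark ACGTG, the core letters of the hypoxia response element, on either strand, in the 250 bases before the RefSeq start site on GRCm38.p6 at chr11:120948817-120949066 on the plus strand, chr7:138909507-138909756 on the minus strand and chr12:54203875-54204124 on the minus strand. In Bnip3 the matches on the opposite strands overlap.
Slc16a3: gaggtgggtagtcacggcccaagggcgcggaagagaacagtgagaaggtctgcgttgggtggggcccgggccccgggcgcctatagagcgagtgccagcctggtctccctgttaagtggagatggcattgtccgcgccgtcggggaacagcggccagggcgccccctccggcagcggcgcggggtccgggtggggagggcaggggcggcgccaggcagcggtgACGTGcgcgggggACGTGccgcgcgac
Bnip3: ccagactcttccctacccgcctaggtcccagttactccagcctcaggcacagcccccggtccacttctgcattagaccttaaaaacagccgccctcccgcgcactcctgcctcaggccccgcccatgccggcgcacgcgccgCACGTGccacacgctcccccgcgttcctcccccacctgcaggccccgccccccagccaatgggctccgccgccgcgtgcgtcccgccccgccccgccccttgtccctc
Egln3: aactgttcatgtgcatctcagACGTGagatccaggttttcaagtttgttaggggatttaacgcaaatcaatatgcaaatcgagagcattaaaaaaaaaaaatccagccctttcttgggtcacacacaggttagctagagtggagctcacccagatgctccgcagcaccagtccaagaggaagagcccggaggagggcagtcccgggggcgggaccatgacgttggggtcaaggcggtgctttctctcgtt
Of 30 members 28 had a promoter in the table, and 14 of these (50%) held ACGTG within the 300 bases, against 19.7% of 27025 promoters. This search was added after the values had been seen.

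Among all genes, the 5 with the lowest p for a difference between tau and PBS were Fam13b, Rgs14, Mreg, Fam162a and Egln3, none past the adjusted threshold. Fam13b measured 89.3, 79.7 and 81.4 CPM on tau day 9 and 18.4, 31.3 and 30.2 CPM on tau day 21, against 82.7, 79.7 and 86.1 and 59.7, 47.6 and 57.7 CPM in PBS. All 3 tau day 21 libraries lay below all 3 PBS day 21 libraries, and the difference of day effects was -1.11 (95% interval -1.56 to -0.67, unadjusted p 0.000105, adjusted p 0.823). Rgs14, a signalling regulator of hippocampal CA2 neurons, had day effects of 0.56 with tau and -0.57 with PBS, and Fam162a, a HIF target, had 1.09 and 0.23.

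Several genes of immune signalling were higher on day 21 with and without tau. In the list of NF-kB targets, chemokines and complement 18 of 28 genes were tested, with 14 higher and 1 lower under tau (median 1.90; PBS 15 and 0, median 2.41). As for the oligodendrocyte list, members near 0 on day 9 could pass the low-count filter only through day 21, so these counts and medians are a description. The cytokine and chemokine genes Ccl2, Ccl5, Ccl7, Cxcl1, Cxcl10, Il6, Il1b and Tnf were among the 10 under the filter. The complement gene C4b rose from 6.98, 7.50 and 7.82 CPM to 37.9, 55.3 and 76.4 CPM, although reads of its near-identical copy C4a may be split with it. Ptgs2, the inducible cyclooxygenase, rose from 2.41, 1.74 and 3.12 CPM to 25.3, 10.2 and 40.3 CPM. The acute phase gene Serpina3n rose from 35.2, 32.8 and 33.6 CPM to 133, 131 and 175 CPM, with the family's near-identical members again uncertain. Lcn2, a siderophore binder of reactive astrocytes, had 1 and 108 counts (ratio 71.4, counting interval 12.5 to 2844), and C1ra 3 and 110 counts (ratio 24.2, counting interval 8.08 to 119). The chemokine gene Cxcl12 fell by 0.83 on the log2 scale, a call lost without tau day 21 replicate 1, tau day 21 replicate 3 or tau day 9 replicate 2 and in both other treatments of the spread.

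Of 27 interferon-stimulated and antigen presentation genes 19 were tested, with 12 higher and 1 lower (median 1.21), against 12 and 1 in PBS (median 1.92). The tau count of risers was 8 without tau day 21 replicate 1, and 8 without both day 21 libraries of high Rn45s share. These counts are again a description, since members such as Bst2 passed the filter through day 21. Bst2, a tether of viral particles, rose from 0.261, 0.180 and 0.0725 CPM to 0.935, 1.38 and 0.970 CPM. Psmb8, an immunoproteasome subunit, rose from 0.130, 0.480 and 0.290 CPM to 1.76, 1.43 and 1.50 CPM, and Stat2, a transducer of interferon signals, fell from 42.7, 43.9 and 40.1 CPM to 20.3, 16.7 and 17.3 CPM. NRF2 antioxidant genes rose in 8 of 17 members (47.1%, against 22.4% of all genes) and fell in 0 (median 0.40). In PBS 12 rose and 0 fell (median 0.59). The tau count of risers was 4 without tau day 21 replicate 2, where 1 fell, and 5 without tau day 21 replicate 3. Gstm1, a glutathione transferase, rose from 61.1, 55.4 and 56.1 CPM to 213, 429.7 and 296 CPM, and Hmox1, heme oxygenase, from 12.7, 12.7 and 11.9 CPM to 39.5, 79.4 and 46.7 CPM. Astrocyte markers, given above, rose in the same libraries, and their part in these lists was not tested.

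Of 25 genes of the unfolded protein and integrated stress response 11 rose and 2 fell under tau (median 0.44), against 13 and 2 in PBS (median 0.54). The tau shares were 44% and 8%, against 22.4% and 21.8% of all genes. Ddit3, the CHOP transcription factor, rose from 13.9, 14.2 and 14.3 CPM to 60.2, 51.7 and 53.9 CPM with no overlap (log2 fold change 1.97 ± 0.18 (SE), adjusted p 1.54e-06), and Nupr1 and Trib3 rose by 2.74 and 2.01 on the log2 scale. Xbp1, a driver of the unfolded protein response, fell by 0.38, and 1 of both fallers passed without tau day 21 replicate 1 or 3. Among p53 and apoptosis genes 21 of 22 were tested, with 6 higher and 5 lower (28.6% and 23.8%, near the 22.4% and 21.8% of all genes; median 0.13). Atf3, a stress-induced transcription factor, rose from 0.522, 0.660 and 0.942 CPM to 4.89, 6.42 and 6.75 CPM. The count of fallers was 1 without tau day 21 replicate 1 or 3, 2 without tau day 9 replicate 1 or 2 and 3 without tau day 21 replicate 2.

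Lysosome and autophagy genes had 13 of 28 members higher and 1 lower (median 0.40), with 0 lower without tau day 21 replicate 2 or 3. In PBS 16 rose and 1 fell (median 0.52). The tau shares were 46.4% and 3.57%, against 22.4% and 21.8% of all genes. The risers were led by Ctsz, a cathepsin (2.22, 2.28 and 2.54 to 11.4, 18.3 and 13.5 CPM), and Tfeb, the transcription factor of lysosome genes (1.89, 1.44 and 1.67 to 4.03, 7.64 and 4.76 CPM). Nuclear-encoded respiratory chain genes rose in 20 of 30 members and fell in 0 (median 0.43; PBS 18 and 0, median 0.34), with 12 risers without tau day 21 replicate 1 or 2, against 22.4% of all genes with every library. Most of these rises were small, such as Cox8a (192, 173 and 176 to 305, 366 and 316 CPM), and Cox6a2, the muscle-type subunit of complex IV that interneurons also use, rose from 0.457, 0.540 and 0.797 CPM to 5.94, 7.91 and 3.97 CPM. In the amyloid pathway and Alzheimer risk list 21 of 22 genes were tested, with 5 higher and 7 lower (median -0.09). These shares were 23.8% and 33.3%, against 22.4% and 21.8% of all genes, so the rises are near the background. In a fit of the tau libraries alone 8 were higher. Clu, a lipid carrier of astrocytes, rose from 99.5, 89.3 and 104 CPM to 436, 735 and 524 CPM. Itm2c, a regulator of APP processing, rose from 276, 262 and 271 CPM to 1297, 861 and 1020.2 CPM, and the amyloid-degrading enzyme Ide fell by 0.82 on the log2 scale.

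Histone acetylation and acetyl-CoA genes had 5 of 29 members higher and 9 lower (17.2% and 31.0%, near the 22.4% and 21.8% of all genes; median 0.10; PBS 7 and 8, median -0.06). Acly, which makes acetyl-CoA from citrate, fell from 747, 749 and 751 CPM to 218, 211 and 217 CPM (log2 fold change -1.80 ± 0.10 (SE), adjusted p 3.99e-08), and in PBS by 1.98 on the log2 scale. Acss1, the mitochondrial relative of Acss2, rose from 10.2, 9.30 and 11.9 CPM to 24.8, 49.9 and 29 CPM, and the deacetylase genes Sirt2, which myelinating cells express, and Sirt3, of mitochondria, rose by 1.79 and 1.44. The acetyltransferase gene Kat6b and the deacetylase gene Hdac6 fell by 0.60 and 0.60. Among the 13 neuron markers 4 rose and 4 fell (30.8% each, against 22.4% and 21.8% of all genes, median 0.25). The fallers were Slc17a6, Tubb3, Neurod6 and Map2, and 7 markers rose without both day 21 libraries of high Rn45s share.

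**Figure D5:**
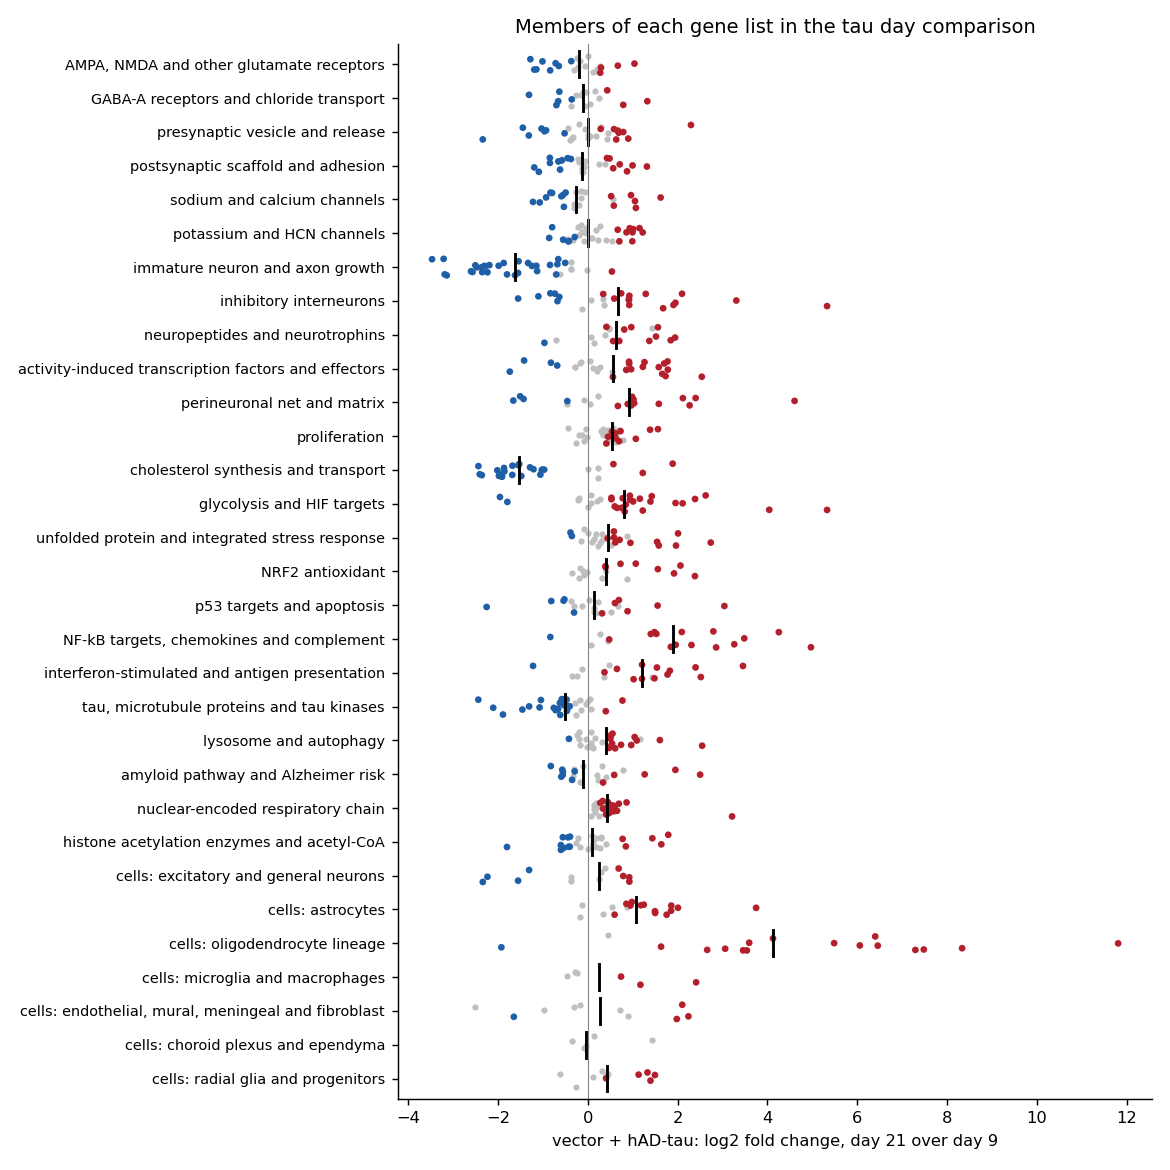
Log2 fold change from day 9 to day 21 under hAD-tau for each tested member of 24 gene lists and 7 marker lists, with called members in red (higher) or blue (lower), others in grey, and the list median as a black bar. The immature neuron and cholesterol lists lie left of 0 (medians -1.62 and -1.54) and the oligodendrocyte lineage list lies to the right (median 4.12), while most synaptic and channel lists straddle 0.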

How the data were processed

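Expression was measured by RNA sequencing of total RNA, and the authors deposited a table of raw read counts per gene for 24 unstimulated libraries (25239 gene rows), of which the 12 vector libraries were used. The submitters' processing notes name mm10, STAR, featureCounts, HTSeq and DESeq2 without roles. The annotation and strand setting used for counting are not given in the sources used here, so values of overlapping, antisense and near-identical genes are uncertain. Coordinates come from the GRCm38 gene annotation and promoters from RefSeq on GRCm38.p6.

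Counts were scaled by TMM, filtered by group with edgeR 4.0.16 (14464 genes kept) and fitted with limma 3.58.1 in R 4.3.3 (voom with weights estimated for each day, robust moderation), because the variance on day 21 was 6.32 times that on day 9. This replaces edgeR's quasi-likelihood test, which was run as an alternative with DESeq2 1.42.0, other scaling and filters, and each library left out in turn. The contrasts were day 21 minus day 9 with tau, the same with PBS, and their difference, all two-sided with Benjamini-Hochberg adjustment over all genes. The smallest p of an exact permutation test of 3 against 3 libraries is 0.1, so single values were not tested alone. No pair of replicates was alike within counting noise. CPM are relative to the TMM-scaled library size. A counting interval is the exact 95% interval of a ratio of summed counts and covers counting error only.

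On simulated counts for 14350 genes with 198 changed in the tau comparison, the fit recovered 77.0% of 2-fold and 93.9% of 4-fold changes, and 13.3% of its 195 calls were false, more than the adjusted threshold allows. For the difference it recovered 56.0% and 84.7%, with 14.2% of 162 calls false. With edgeR the false shares were 9.73% and 6.08%.

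The comparison and the 24 gene lists and 7 marker lists were chosen with earlier results of these data known. Named genes are Acss2 and Mapt; the 10 highest and 10 lowest fold changes among called genes whose mean log2 CPM reached 1, whose days did not overlap and whose symbol was not a predicted one; up to 3 risers and 3 fallers per list; and the 5 lowest p of the difference. Genes outside this rule were chosen after their values were seen, among them Gap43, Gsk3b, Btg2, Hmgcs1, Srebf2, Stard4, Idi1, Hk2, Bnip3, Aldoa, Ldha, Hk1, C4b, Serpina3n, Glul, Tnr, Dcx, Slc2a1, Ptgs2, Mki67, Gipr, Fbln2 and Amigo2. Some genes are not reported here.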

Additional observations from a re-analysis of the deposited data

How the results depend on the processing

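Depth was 14603730 to 33960722 counts per library, so the precision was set mainly by the spread of the day 21 libraries. The tau comparison had between 5443 and 7825 calls over the settings that changed the test, scaling, filter or samples, and 4540 to 6830 when 1 library was left out, against 6390. The PBS comparison had 5918 to 7463 calls when 1 library was left out, against 7365. Of the tau calls 3768 kept their direction and passed in all 12 of those fits, and 4869 of the PBS calls did. The difference between tau and PBS had 0 calls except for 1 by DESeq2, 1 by edgeR's quasi-likelihood test over all 24 unstimulated libraries and 6 without tau day 21 replicate 2, and its leave-one-out range was 0 to 6. The cause was not tested. Leaving out both day 21 libraries of high Rn45s share, and removing Rn45s before scaling, were chosen after seeing the data, with 5443 and 6392 tau calls. The Spearman rho between the pair of day differences ranged from 0.809 to 0.910 without 1 library and was 0.913 for genes whose mean log2 CPM reached 3. For 161 named genes with a tau call, 3702 alternative fits gave 3604 on the same side of the threshold, 98 no longer past it and 0 reversed. C3 and Kcnq5 were among the calls lost most often, in 10 and 17 fits.

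The replicate numbers were not taken to pair the libraries: same-numbered tau libraries of the days had correlations of deviations of 0.019, -0.036 and -0.056, and those of PBS 0.038, 0.065 and 0.060, each best with its own number. Tau and PBS libraries of day 21 had 0.568, 0.230 and -0.016, so the pairs did not all pass 0.1. With the replicate number as a block the tau comparison had 6973 calls, the PBS comparison 7760 and the difference 0 (1093 at an unadjusted p under 0.05).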

Other observations

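Of the 5333 genes called in both day comparisons 3 went in opposite directions. Amigo2, an adhesion protein of hippocampal CA2 neurons, had a log2 fold change of 0.88 with tau and -0.84 with PBS (difference 1.72, unadjusted p 0.00146). Rgs14, also known from CA2 neurons, had 0.56 and -0.57 (difference 1.13, unadjusted p 0.00073), measuring 6.33, 6.12 and 6.88 CPM on tau day 9, 11, 8.92 and 8.47 CPM on tau day 21, 8.19, 7.21 and 7.76 CPM on PBS day 9 and 7.84, 4.71 and 4.43 CPM on PBS day 21. Mreg, a protein of vesicle transport, had 0.56 and -0.69 (difference 1.24, unadjusted p 0.000762), from 3.46, 3.24 and 2.97 CPM to 5.72, 4.09 and 4.41 CPM with tau and from 4.02, 3.91 and 3.67 CPM to 2.81, 2.38 and 2.21 CPM with PBS. None of the 3 differences passed the adjusted threshold (limma). The tau call of Mreg was lost without tau day 21 replicate 1 (adjusted p 0.306) or 3, without tau day 9 replicate 3 and by edgeR over 24 libraries, and that of Rgs14 without tau day 21 replicate 1 (adjusted p 0.201).

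A call with tau only, or with PBS only, was not in itself a call for the difference, of which limma gave 0. Of 1057 genes called with tau only, 166 had an unadjusted p under 0.05 for the difference (limma), and of 2032 called with PBS only, 275 did. Both shares lie above the 5.5% of all genes (796 of 14464). These genes were picked for passing with tau but not with PBS, or the reverse, which by itself favours a difference. The comparison with all genes therefore cannot show a change by tau, and no conclusion is drawn from it.

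Adm, a vasodilator peptide and HIF target, measured 0.391, 0.360 and 0.725 CPM on tau day 9 and 4.89, 1.17 and 3.88 CPM on tau day 21, against 0.680, 0.672 and 0.673 CPM and 2.46, 0.843 and 2.39 CPM with PBS, with replicate 2 again the lowest tau day 21 library. Fbln2, the gene called for the difference by DESeq2 and by edgeR over 24 libraries, had log2 fold changes of -0.90 with tau and -2.34 with PBS in limma (difference 1.44, unadjusted p 0.00206, adjusted p 0.823).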
